A study of Mus musculus with 6 samples.

Results

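The genes described here encode 10 proteins of the contractile actin cytoskeleton and its anchors in the cell membrane: the nonmuscle myosin II heavy chains Myh9 and Myh10, the filament crosslinkers and binders Flna, Actn1 and Tagln2, and the adhesion and stress fibre proteins Vcl, Zyx, Pdlim7, Palld and Synpo2. They were chosen by gene symbol from a table of 55487 genes, and all 10 were found. The RNA-seq libraries are of lung fibroblasts in primary culture, taken from wild-type (WT) C57BL/6 mice: 3 libraries from cells given PBS and 3 from cells given recombinant mouse CIRBP (rmCIRBP) at 1 µg/mL. In both groups the cells had been kept in 0.1% serum for 24 h before the 24 h treatment. CIRBP is a cold-induced RNA-binding protein that acts outside the cell as a ligand of innate immune receptors, and the study's title concerns its effect on activation of lung fibroblasts.

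Nonmuscle myosin II is the motor that pulls actin filaments together in cells other than muscle. Filaments bundled by alpha-actinin and crosslinked by filamin form stress fibres, whose ends are tied by vinculin, zyxin and other plaque proteins to integrins at focal adhesions. Fibroblasts use this machinery to spread, migrate and contract matrix, and it is built up when they become myofibroblasts. Many of its genes are known targets of serum response factor (SRF) with its actin-sensing cofactors, the MRTF proteins, and of the TEAD factors that work with YAP.

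The promoters of the 10 genes are given here by the short sequences they hold, because the first question about genes that share a structure is whether they share regulatory letters. RefSeq (GRCm38.p6) gave 12 promoter windows for the 10 genes, each from 250 bases before to 50 after an annotated start, and 3 of the 12 belong to Palld. The CArG box, the sequence bound by SRF, was found in 1 of the 12 windows, that of Vcl, and in 1.63% of the 32851 promoter windows of all genes. CATTCC or its reverse complement GGAATG, the letters read by TEAD factors, was in 5 of the 12 windows and in 14.7% of all. The kappaB site, bound by NF-kB, was in 4 of the 12 and in 8.46% of all. Both strands were searched. A match describes the letters only, and the lack of one says nothing about the factor. The capitals in each line mark the matched letters, the strand is that of the gene, and the flanks end at the annotated start.
Vcl CArG box, 227 bases upstream, plus strand, chr14:20929151-20929200: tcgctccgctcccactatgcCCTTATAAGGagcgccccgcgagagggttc
Vcl GGAATG, 143 bases upstream, plus strand, chr14:20929235-20929280: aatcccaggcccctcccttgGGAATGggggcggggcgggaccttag
Tagln2 CATTCC, 118 bases upstream, plus strand, chr1:172500108-172500153: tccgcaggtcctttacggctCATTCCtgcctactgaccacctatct
Tagln2 CATTCC, 80 bases upstream, plus strand, chr1:172500146-172500191: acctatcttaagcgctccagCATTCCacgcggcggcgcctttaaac
Tagln2 kappaB site, 11 bases upstream, plus strand, chr1:172500215-172500245: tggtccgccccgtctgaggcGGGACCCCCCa
Myh10 CATTCC, 7 bases upstream, plus strand, chr11:68691888-68691914: gagcgggagccaatgagcatCATTCCa
Flna kappaB site with CATTCC inside it, 150 bases upstream, minus strand, chrX:74246655-74246704: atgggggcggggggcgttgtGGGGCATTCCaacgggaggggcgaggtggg
Pdlim7 kappaB site, 101 bases upstream, minus strand, chr13:55513518-55513567: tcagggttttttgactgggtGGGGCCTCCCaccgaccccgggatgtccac
The last CATTCC match lay in an internal promoter of Palld, and the last kappaB match, in Vcl, overlapped its CArG box. The windows of Myh9, Actn1, Synpo2 and Zyx held none of these sequences.

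The libraries held 12105584 to 14262375 counts. Levels are given in CPM, counts brought to a common library size with factors from the trimmed mean of M values (TMM), and a gene was called where edgeR's quasi-likelihood test gave a Benjamini-Hochberg adjusted p below 0.05. A count of 0 allows up to 3 counts, or 0.205 to 0.249 CPM, a limit that covers counting error alone. Nothing in the labels tells if the replicates are separate mice or cultures. The p-values therefore reflect only how far these samples spread, and that spread may be technical. rmCIRBP 2 stood apart in contractile genes. The summed level of 10 smooth muscle markers was 10200 CPM in it, against 4754 and 2062 CPM in rmCIRBP 1 and 3 and 5482, 2755 and 2856 CPM in PBS 1, 2 and 3, and the smooth muscle regulator Myocd was at 0 to 0.289 CPM in every library. Acta2 was the largest part of each sum, at 3150, 6280 and 1360 CPM in rmCIRBP 1, 2 and 3 and 2720, 1310 and 1100 CPM in PBS 1, 2 and 3. Synpo2 is both one of these markers and one of the 10 genes described. For the 10 genes and several relatives, results are therefore also given without rmCIRBP 2 where it moved them. Fibroblast markers summed to 20060 to 28750 CPM, of which collagen genes made up most. Among these 10 markers Dcn was called higher (edgeR log2 fold change 1.21, adjusted p = 0.0261) and Thy1 lower (-1.21, adjusted p = 0.00420). The epithelial marker Krt8, the endothelial marker Cldn5 and the pericyte marker Higd1b had no count in any library. Endothelial markers summed to 19.5 to 26.7 CPM in PBS and 5.93 to 8.24 CPM in rmCIRBP (2 of 3 tested lower, Kdr and Tek), and skeletal or cardiac muscle markers to 66.3 to 115.5 and 10.1 to 49.8 CPM (3 of 5 tested lower). Kdr and Tek made up most of the endothelial sums. Vwf, the other endothelial marker tested, had a log2 fold change of 0.63 and was not called (edgeR adjusted p = 0.531). Pecam1 and Cdh5 reached at most 0.416 and 0.368 CPM in any library. Pericyte markers summed to 123.6, 131 and 139.5 CPM in PBS and to 80.6, 91.5 and 77.6 CPM in rmCIRBP, groups that did not overlap. Of 6 tested, Cspg4 was called lower, and Notch3 was at 58.0, 80.5 and 93.5 CPM in PBS and at 48.4, 31.2 and 56.0 CPM in rmCIRBP (edgeR adjusted p = 0.0783). Rgs5, the 1 of the 6 with a log2 fold change above 0, was at 0.915, 1.30 and 1.44 CPM in PBS. In rmCIRBP it was at 4.19, 2.24 and 2.79 CPM (edgeR log2 fold change 1.32, adjusted p = 0.0514) and was not called. Epithelial and mesothelial markers summed to at most 8.41 and 16.7 CPM in any library, and 1 mesothelial gene (Upk3b) was called lower. Macrophage markers summed to 113, 146 and 130 CPM in PBS and to 130, 142 and 73.6 CPM in rmCIRBP, overlapping groups. Of 6 tested, 4 had a log2 fold change above 0, of which Marco and Adgre1 were called higher. Lyz2, the most abundant, was at 92.7, 124 and 111 CPM in PBS and at 86.9, 91.7 and 44.5 CPM in rmCIRBP (edgeR adjusted p = 0.199). What part these cell types had in the results was not tested. In RNA of whole cultures, fewer cells of a type and less RNA per cell cannot be told apart.

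Of the 10 genes, Myh10 and Zyx were lower after rmCIRBP, Tagln2 was higher, and 7 did not pass the test. All 10 passed the filter on low counts. Of all 15801 genes tested, 11.5% were called, 6.74% higher and 4.77% lower. With upper quartile scaling 925 genes (5.85%) were higher and 1022 (6.47%) lower, in place of 1065 and 753, and the same 3 of the 10 genes were called. The share of all genes called was 12.3% with that scaling, 11.5% with DESeq2's size factors, 11.8% by library size, 9.29% without a filter, 12.2% with a filter of 1 CPM, 16.6% by DESeq2, 11.0% by limma voom and 7.96% with the replicate number in the fit. It was 13.2%, 4.47% and 5.33% without PBS 1, 2 and 3, 4.57%, 9.96% and 8.54% without rmCIRBP 1, 2 and 3, and 17.5% without PBS 1 and rmCIRBP 2 together. The median log2 fold change was 0.01 over the 10 genes and -0.01 over all genes tested. The groups did not overlap for the same 3 genes, as for 34.6% of all genes tested (17.5% higher, 17.1% lower).

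**Figure D1:**
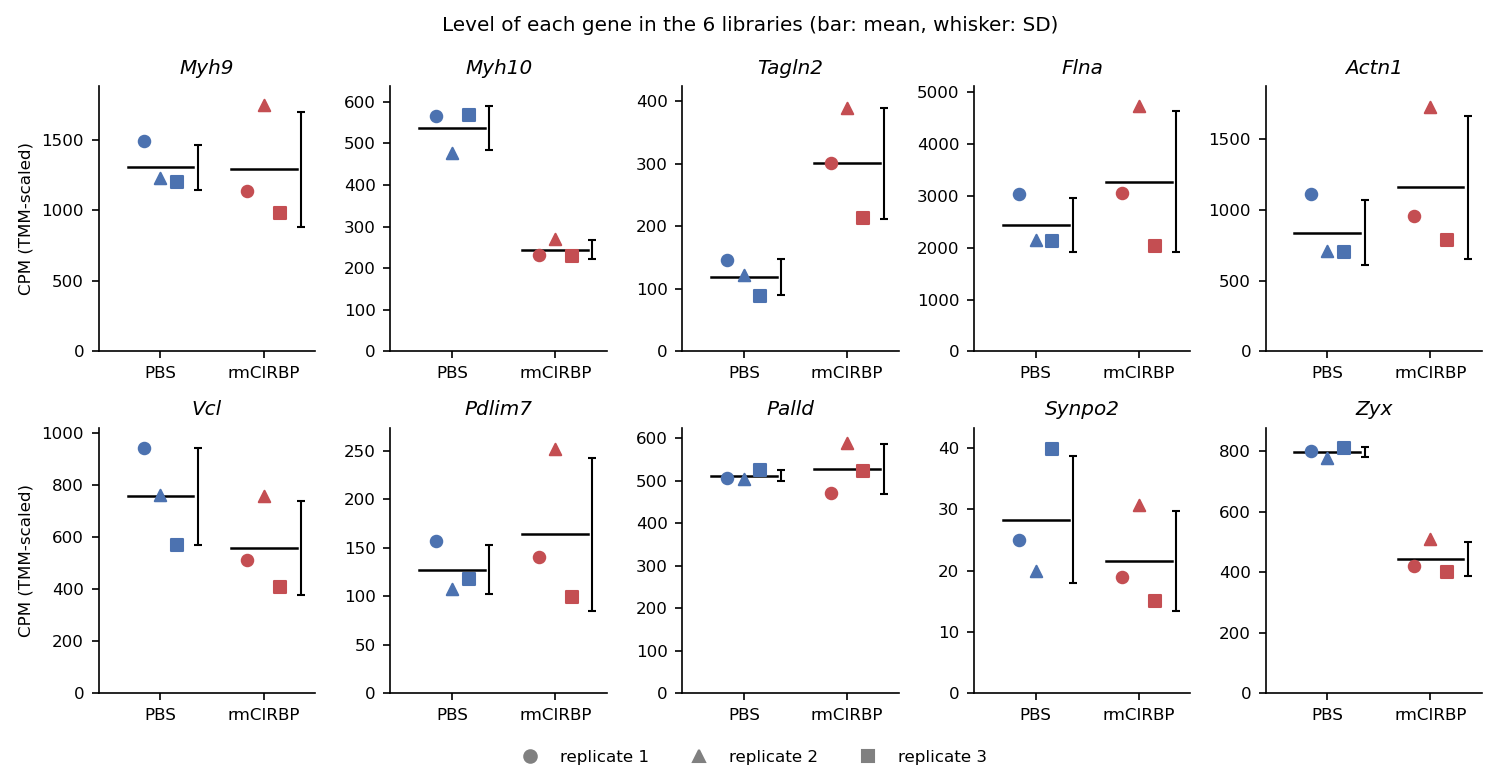
Level of each gene in CPM (linear axis from 0) in 3 PBS libraries (blue) and 3 rmCIRBP libraries (red); symbols give the replicate number, bars the mean and whiskers the SD. The groups separate for Myh10, Tagln2 and Zyx, and rmCIRBP 2 (red triangle) is the highest rmCIRBP library for all 10 genes.

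Of the nonmuscle myosin II heavy chains, Myh10 fell and Myh9 did not pass the test. Myh10 encodes the heavy chain of myosin IIB, the slower isoform, which holds tension for longer (chromosome 11, 68691559 to 68816632, GRCm38, plus strand). It was at 566, 476 and 568 CPM in PBS 1, 2 and 3 and at 232, 271 and 230 CPM in rmCIRBP 1, 2 and 3. Every rmCIRBP library lay below every PBS library, and rmCIRBP 2 did not stand apart as it did for other genes. Myh10 fell by 54.5% (edgeR log2 fold change -1.13 ± 0.13, SE; adjusted p = 0.00190), and in the fits that left out 1 library the log2 fold change was -1.21 to -1.09, always called.

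Myh9 encodes the heavy chain of myosin IIA, the main motor of stress fibres and of cell retraction (chromosome 15, 77760587 to 77842175, minus strand). Its level was 1490, 1230 and 1200 CPM in PBS and 1140, 1750 and 981 CPM in rmCIRBP. The rmCIRBP libraries lay on both sides of the PBS libraries, with rmCIRBP 2 the highest and rmCIRBP 3 the lowest of all 6. In edgeR's fit the log2 fold change came to -0.01 ± 0.23 (SE; adjusted p = 0.974), with a 95% interval of -0.54 to 0.51. Without rmCIRBP 2 the log2 fold change of Myh9 was -0.30, also not called.

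The balance of the heavy chains was compared within each library, where it does not depend on the scaling. Counts per kb of Myh10 were 0.363, 0.370 and 0.452 of those of Myh9 in PBS, and 0.194, 0.147 and 0.224 of them in rmCIRBP. No rmCIRBP library reached the lowest PBS ratio. The mean log2 ratio was -1.35 ± 0.18 (SD, n = 3) in PBS and -2.43 ± 0.31 (SD, n = 3) in rmCIRBP, a difference of -1.08 with an exact two-sided permutation p of 0.1, the smallest that 3 against 3 allows. The remaining heavy chain, Myh14 of myosin IIC, was at 0 to 0.205 CPM, at or below the level that 3 counts give. The transcripts of Myh9 and Myh10 shared 73 stretches of 50 bases, which is 0.689% of those of Myh10, so few reads could be assigned to either.

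**Figure D2:**
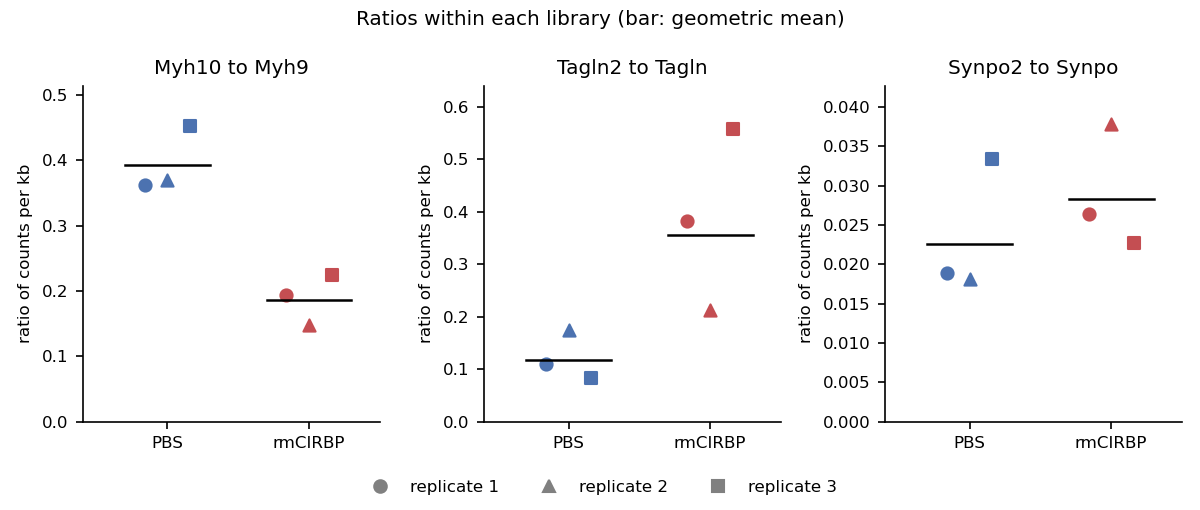
Ratio of counts per kb of transcript within each library (linear axis from 0), for 3 PBS (blue) and 3 rmCIRBP (red) libraries; symbols give the replicate number and bars the geometric mean. The ratio of Myh10 to Myh9 lies between 0.363 and 0.452 in PBS and between 0.147 and 0.224 in rmCIRBP, while the ratio of Synpo2 to Synpo overlaps between the groups.

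The light chains and regulators of the motor were not called. Besides Myh9 and Myh10, the list of nonmuscle myosin II genes held 10 genes. Of these, 9 were tested, all but the heavy chain Myh14, and 0 rose and 0 fell, where 11.5% of all genes were called. The median log2 fold change of the 9 was -0.08. Myl9, the regulatory light chain of contractile cells, was at 536, 296 and 305 CPM in PBS and at 362, 755 and 211 CPM in rmCIRBP. Rock1 and Rock2, kinases that switch the motor on through the light chain, had log2 fold changes of 0.01 and -0.08. Among the 9, Myl12b had the smallest adjusted p (edgeR, 0.303).

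Among the actin binders, Tagln2 was the only one of the 10 genes that rose. It encodes transgelin 2, a small actin-bundling protein of many cell types and a relative of the smooth muscle protein transgelin (chromosome 1, 172500047 to 172507380, plus strand). Its level was 146, 122 and 88.3 CPM in PBS and 301, 389 and 213 CPM in rmCIRBP. All rmCIRBP libraries lay above all PBS libraries, although rmCIRBP 2 was also the highest of them. The fold change was 2.53 (log2 1.34 ± 0.25, SE; edgeR adjusted p = 0.0151). Without rmCIRBP 2 the log2 fold change was 1.11, still called (edgeR adjusted p = 0.0169). The call ended without PBS 2 (edgeR adjusted p = 0.0686), PBS 3 (0.0564) or rmCIRBP 1 (0.0539), with log2 fold changes of 1.37, 1.17 and 1.35.

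Tagln, the smooth muscle transgelin, was not called. It was at 1340, 699 and 1060 CPM in PBS and at 793, 1850 and 383 CPM in rmCIRBP (edgeR log2 fold change -0.04 ± 0.51, SE; adjusted p = 0.972), with rmCIRBP 2 the highest and rmCIRBP 3 the lowest library. Without rmCIRBP 2 the log2 fold change of Tagln was -0.81, also not called. Counts per kb of Tagln2 were 0.110, 0.175 and 0.0837 of those of Tagln in PBS and 0.381, 0.212 and 0.558 of them in rmCIRBP, groups that did not overlap. The mean log2 ratio was 1.602 higher in rmCIRBP (exact two-sided permutation p = 0.1, n = 3 each).

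Flna encodes filamin A, a large crosslinker that joins actin filaments into networks and binds integrin tails (chromosome X, 74223461 to 74249820, minus strand). It was at 3040, 2150 and 2140 CPM in PBS and at 3060, 4740 and 2030 CPM in rmCIRBP. The groups overlapped, since rmCIRBP 3 lay below every PBS library. edgeR's estimate was a log2 fold change of 0.42 ± 0.31 (SE; adjusted p = 0.400; 95% interval -0.28 to 1.13), and 0.06 without rmCIRBP 2.

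Actn1 encodes alpha-actinin 1, which crosslinks filaments along stress fibres and links them to adhesions (chromosome 12, 80167547 to 80260371, minus strand). It was at 1110, 710 and 701 CPM in PBS and at 960, 1730 and 786 CPM in rmCIRBP. PBS 1 and rmCIRBP 2 were the high libraries of their groups. edgeR put the log2 fold change at 0.47 ± 0.32 (SE; adjusted p = 0.368; 95% interval -0.26 to 1.19), and 0.06 without rmCIRBP 2. Its exons overlap 2 antisense genes, Gm47766 and Gm47767, whose counts came to 5.69% and 3.86% of those of Actn1. Since no strand setting is given, reads of the shared bases cannot be told apart.

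Flnc, the muscle-enriched filamin, was at 386, 425 and 454 CPM in PBS and at 314, 332 and 261 CPM in rmCIRBP (edgeR log2 fold change -0.48 ± 0.13, SE; adjusted p = 0.0557). Flnc did not pass, though its groups did not overlap, as for 34.6% of all genes tested. It passed in 4 of 15 alternative fits, among them DESeq2 (adjusted p = 0.0111) and edgeR without rmCIRBP 2 (adjusted p = 0.0470). In the other 11 Flnc was not called, as with the replicate block (edgeR adjusted p = 0.118). On simulated counts 21.5% of DESeq2's calls were false. Actn4 was at 0.14 ± 0.20 on the log2 scale (edgeR, with SE; adjusted p = 0.679).

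Of the 17 other actins, crosslinkers and actin filament binders listed, all tested, 0 rose and 1 fell, where 11.5% of all genes were called. Their median log2 fold change was 0.04. The gene that fell was Pls3, which encodes the bundling protein plastin 3 (edgeR log2 fold change -0.82 ± 0.19, SE; adjusted p = 0.0300). It was at 906, 563 and 725 CPM in PBS and at 379, 463 and 402 CPM in rmCIRBP. Its call ended without PBS 1 (edgeR adjusted p = 0.0531), PBS 3 (0.0938), rmCIRBP 1 (0.115) or rmCIRBP 3 (0.0699), with log2 fold changes of -0.63, -0.82, -0.75 and -0.79.

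At the adhesions, Zyx was the gene of the 10 with the tightest PBS values. Zyx encodes zyxin, a LIM protein that moves to strained stress fibres and adhesions and helps repair them (chromosome 6, 42349630 to 42360213, plus strand). It was at 802, 778 and 811 CPM in PBS, a coefficient of variation of 2.13%, and at 422, 510 and 402 CPM in rmCIRBP. The highest rmCIRBP library lay well below the lowest PBS library. Zyx fell by 44.2% (edgeR log2 fold change -0.84 ± 0.13, SE; adjusted p = 0.00719), and in each fit that left out 1 library it was called, with log2 fold changes of -0.95 to -0.77 and edgeR adjusted p from 0.00255 to 0.0475. Its exons share 236 bases with Epha1, a receptor gene on the other strand whose counts came to 2.16% of those of Zyx. Epha1 was at 18.9 ± 4.26 and 7.80 ± 0.981 CPM (SD, n = 3 each) and was called lower as well (log2 fold change -1.28; edgeR adjusted p = 0.00801), and reads of the shared bases cannot be told apart.

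Its relatives were not called. Lpp, which resembles zyxin in its LIM domains, was at 502, 383 and 426 CPM in PBS and at 488, 707 and 409 CPM in rmCIRBP (edgeR log2 fold change 0.29 ± 0.21, SE; adjusted p = 0.410). Without rmCIRBP 2 the log2 fold change of Lpp was 0.04. Trip6, another zyxin relative, was at 0.20 ± 0.10 on the log2 scale (edgeR, with SE; adjusted p = 0.240).

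Vcl encodes vinculin, which binds talin and actin and strengthens adhesions under load (chromosome 14, 20929398 to 21033676, plus strand). It was at 942, 761 and 571 CPM in PBS and at 511, 760 and 409 CPM in rmCIRBP. Only rmCIRBP 2 lay within the range of the PBS libraries. In edgeR's fit the log2 fold change came to -0.44 ± 0.26 (SE; adjusted p = 0.312; 95% interval -1.04 to 0.17), and -0.72 without rmCIRBP 2 (edgeR adjusted p = 0.0851). The end of Vcl overlaps Ap3m1, a gene of vesicle sorting on the other strand, over 2090 exon bases, and 25.1% of the distinct 50-base stretches of Vcl transcripts also occur, in reverse, in those of Ap3m1. Ap3m1 was at 341 ± 85.7 and 283 ± 81.5 CPM (SD, n = 3 each; edgeR log2 fold change -0.27, adjusted p = 0.515), so the level of Vcl is less certain than that of the other 9 genes.

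Pdlim7 encodes a PDZ and LIM domain protein, also called enigma, that binds tropomyosin and actin filaments (chromosome 13, 55495795 to 55513676, minus strand). It was at 157, 108 and 118 CPM in PBS and at 140, 252 and 99.6 CPM in rmCIRBP. Of the rmCIRBP libraries, rmCIRBP 2 alone lay above the PBS range. edgeR's estimate was a log2 fold change of 0.36 ± 0.32 (SE; adjusted p = 0.493; 95% interval -0.37 to 1.09), and -0.09 without rmCIRBP 2, the opposite sign. Pdlim5, a close relative, was at 0.42 ± 0.24 on the log2 scale (edgeR, with SE; adjusted p = 0.300), and at 0.16 without rmCIRBP 2.

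Palld encodes palladin, a scaffold that organises actin bundles and binds alpha-actinin (chromosome 8, 61511433 to 61902690, minus strand). It was at 507, 503 and 526 CPM in PBS and at 472, 588 and 522 CPM in rmCIRBP. Its level was the steadiest of the 10, with a 1.25-fold span from the lowest to the highest of the 6 libraries. edgeR put the log2 fold change at 0.04 ± 0.12 (SE; adjusted p = 0.854), and its 95% interval of -0.25 to 0.33 was the narrowest of the 10. Without rmCIRBP 2 the log2 fold change was -0.04, and it was -0.02 with upper quartile scaling, so no direction is given for it.

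Synpo2 encodes synaptopodin 2, or myopodin, an actin-bundling protein of smooth and striated muscle (chromosome 3, 123076519 to 123236149, minus strand). It was at 25.1, 20 and 39.9 CPM in PBS and at 19.0, 30.7 and 15.0 CPM in rmCIRBP, the lowest level of the 10 genes. The groups overlapped, with PBS 3 the highest library and rmCIRBP 3 the lowest. In edgeR's fit the log2 fold change came to -0.40 ± 0.32 (SE; adjusted p = 0.450; 95% interval -1.14 to 0.34). It was -0.07 without PBS 3 and -0.74 without rmCIRBP 2, neither of them called.

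Its relative Synpo was called. Synpo encodes synaptopodin, which binds alpha-actinin along stress fibres. It was at 743, 620 and 670 CPM in PBS and at 404, 455 and 368 CPM in rmCIRBP (edgeR log2 fold change -0.73 ± 0.13, SE; adjusted p = 0.0139). That call was lost without PBS 3 (edgeR adjusted p = 0.0515) or rmCIRBP 1 (0.0685), with log2 fold changes of -0.74 and -0.72. Counts per kb of Synpo2 were 0.0189, 0.0181 and 0.0334 of those of Synpo in PBS and 0.0264, 0.0378 and 0.0228 of them in rmCIRBP, overlapping groups (mean log2 difference 0.33; exact two-sided permutation p = 0.5, n = 3 each).

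**Figure D3:**
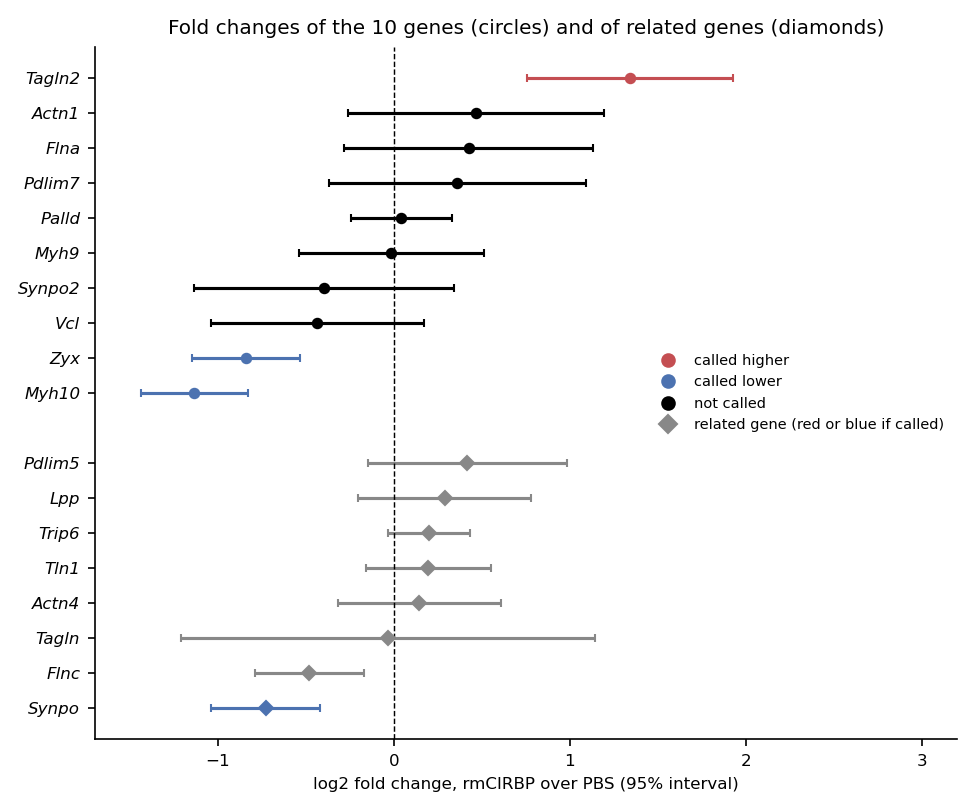
Log2 fold change of rmCIRBP over PBS with its 95% interval from edgeR's fit, for the 10 genes (circles) and for tested relatives (diamonds); red and blue mark genes called higher or lower. Tagln2 at 1.34 lies to the right of 0, Zyx at -0.84 and Myh10 at -1.13 to the left, and the intervals of the other 7 genes cover 0.

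Per kb of the longest annotated transcript, Flna was the most abundant of the 10 genes in PBS at 289 ± 61.1 CPM per kb (SD, n = 3), followed by Zyx at 250 ± 5.33, Actn1 at 225 ± 62.0, Myh9 at 176 ± 21.4 and Vcl at 144 ± 35.3 CPM per kb. The ranges of neighbours in this upper part of the order overlapped. Compared within each library, Actn1 lay above Myh9 and Myh9 above Vcl in all 3 PBS libraries, and Flna above Zyx and Zyx above Actn1 in 2. Palld, Tagln2 and Myh10, at 80.6 ± 1.91, 74.9 ± 18.4 and 68.9 ± 6.77 CPM per kb, formed a group below them whose ranges also overlapped. Pdlim7 at 35.7 ± 7.17 and Synpo2 at 3.08 ± 1.12 CPM per kb each lay below all libraries of the gene above.

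In rmCIRBP the order of these levels per kb differed. Flna at 388 ± 162 (SD, n = 3) and Actn1 at 310 ± 135 CPM per kb came first, and Tagln2 came next at 190 ± 55.8 CPM per kb. Myh9 at 174 ± 54.8 and Zyx at 139 ± 18.0 CPM per kb followed. Below them were Vcl at 106 ± 34.3 and Palld at 83.0 ± 9.20 CPM per kb, and Myh10 at 31.4 ± 2.94 CPM per kb stood after Pdlim7 at 45.8 ± 22.1 and before Synpo2 at 2.34 ± 0.885 CPM per kb. Of the 9 pairs of neighbours, only Palld with Pdlim7 and Myh10 with Synpo2 had ranges that did not overlap. Compared within each library, the order of neighbours held in all 3 rmCIRBP libraries but for 2 pairs. Vcl lay above Palld, and Pdlim7 above Myh10, in 2 of the 3. Lengths of the longest transcript leave out the use of shorter isoforms, and with the union of exons as the length Zyx in PBS was at 148 CPM per kb, just under Actn1 at 152. With that length Palld in PBS, at 49.7 CPM per kb, also came after Tagln2 at 57.1 and Myh10 at 51.3.

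The spread within groups ran through the same genes. Set against the average of rmCIRBP 1 and 3, all 10 genes were higher in rmCIRBP 2, by a median log2 ratio of 0.72, where the median over all tested genes was -0.02. The ratio was 1.08 for Pdlim7, 0.99 for Actn1, 0.90 for Flna and 0.85 for Synpo2, and 0.31 for Zyx, 0.24 for Palld and 0.23 for Myh10. Of the 10, 9 were lowest among the rmCIRBP libraries in rmCIRBP 3, Palld being the exception, and 8 were higher in PBS 1 than in the mean of the other PBS libraries. The genes with the largest ratios thus had coefficients of variation of 48.2% (Pdlim7), 43.4% (Actn1) and 41.7% (Flna) in rmCIRBP, against a median of 10.6% over the 10107 tested genes of at least 10 CPM. The smooth muscle markers given above were high and low in the same libraries, and their part in the levels of these genes was not tested.

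**Figure D4:**
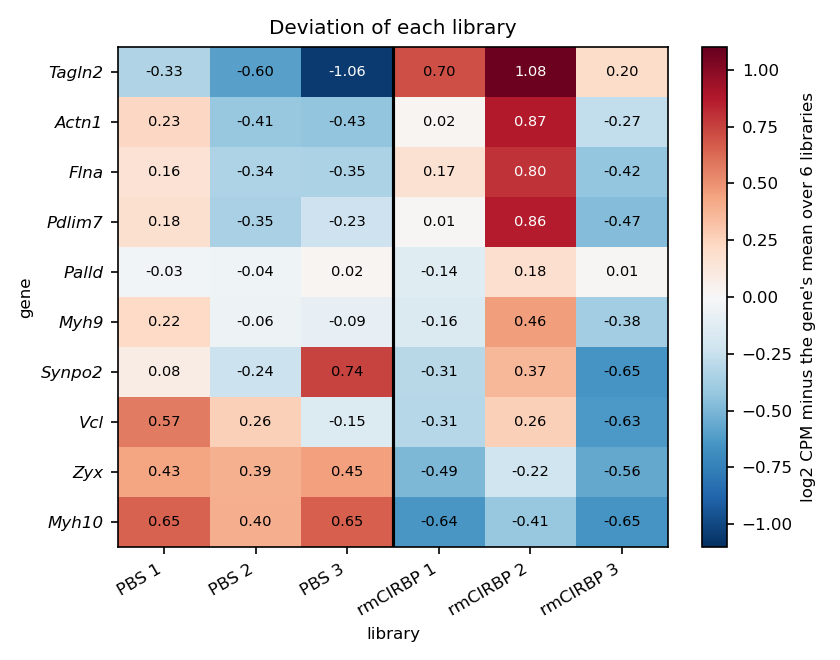
Log2 CPM of each gene (rows, ordered by fold change) in each library (columns) minus the gene's mean over the 6 libraries; red is above and blue below that mean. The column of rmCIRBP 2 is the highest of the rmCIRBP columns in each row, reaching 1.08 for Tagln2 and 0.87 for Actn1, while Myh10 and Zyx are below their mean in all 3 rmCIRBP libraries.

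Flna, Actn1 and Pdlim7 had nearly the same profile over the 6 libraries. After each gene's log2 CPM was centred on its mean, Flna and Pdlim7 differed by 0.07 on average, and Actn1 and Pdlim7 by 0.09. Myh10 and Zyx were each other's nearest among the 10, at 0.14. Tagln2 was the most isolated, its nearest gene being Actn1 at 0.45. These distances describe the same 6 libraries for every gene and carry no test.

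Over the 10106 other genes of at least 10 CPM, the profile most like that of Myh10 was that of Tns1 at a mean absolute difference of 0.09, followed by Col11a1, a fibrillar collagen chain, at 0.10 and Plpp1, a lipid phosphatase, at 0.12, where the median gene differed by 0.58. The genes nearest to Tagln2, which also had the widest range of the 10, were Rrp12 (0.09), a ribosome assembly factor, Pfkl (0.09), the liver phosphofructokinase, and Gm49759 (0.12), with a median of 0.66 for all genes. Near to Zyx were Lonrf1 (0.06) and Ephb3 (0.07), an ephrin receptor, with a median of 0.45. Likeness was chosen over the same 6 libraries, and that these genes differ between the groups follows from that choice.

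Of the other 20 genes of the focal adhesion plaque listed, all tested, 1 rose, 2 fell and 17 did not pass, where 11.5% of all genes were called. Their median log2 fold change was 0.13. Tns1, which encodes tensin 1, a link between integrin tails and actin in mature fibrillar adhesions, fell from 1720, 1850 and 1910 CPM in PBS to 783, 899 and 830 CPM in rmCIRBP (edgeR log2 fold change -1.13 ± 0.13, SE; adjusted p = 0.00190). Sorbs3, which encodes the vinculin-binding protein vinexin, fell from 188, 190 and 174 CPM to 100, 80.0 and 126 CPM (edgeR log2 fold change -0.85 ± 0.16, SE; adjusted p = 0.0159). That call was lost without PBS 2 (edgeR adjusted p = 0.0673) or rmCIRBP 1 (0.0702), with log2 fold changes of -0.82 and -0.83.

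Talin genes, whose products activate integrins and recruit vinculin, were compared as well. Tln2 rose from 64.5, 53.8 and 54.5 CPM to 92.2, 86.6 and 90.3 CPM (edgeR log2 fold change 0.64 ± 0.11, SE; adjusted p = 0.00870). Tln1, the more abundant talin, was at 880, 725 and 702 CPM in PBS and at 815, 1020 and 810 CPM in rmCIRBP and did not pass (edgeR log2 fold change 0.20 ± 0.15, SE; adjusted p = 0.441). Without rmCIRBP 2 the log2 fold change of Tln1 was 0.08.

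Among the LIM proteins listed beside Zyx and Pdlim7, 15 of 16 were tested, of which 0 rose and 2 fell, with a median log2 fold change of -0.11. Of all genes tested, 6.74% were called higher and 4.77% lower. Fhl2, a LIM-only protein that shuttles from adhesions to the nucleus, fell from 145, 166 and 148 CPM to 51.0, 59.0 and 42.8 CPM (edgeR log2 fold change -1.58 ± 0.14, SE; adjusted p = 0.000559). Pdlim2, a PDZ-LIM protein also known as a ubiquitin ligase of NF-kB p65, fell from 208, 187 and 169 CPM to 108, 74.5 and 109 CPM (edgeR log2 fold change -0.95 ± 0.17, SE; adjusted p = 0.0112). Within the rmCIRBP group, Fhl2 was highest and Pdlim2 lowest in rmCIRBP 2.

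Of the palladin and synaptopodin families beside Palld and Synpo2, only Synpo of 4 genes passed the filter, and Mypn and Myot, the striated muscle relatives of palladin, had at most 0.220 CPM. Rnd1, a small GTP-binding protein known to loosen stress fibres, rose from 9.07, 4.80 and 5.95 CPM in PBS to 110, 123 and 135 CPM in rmCIRBP (edgeR log2 fold change 4.22 ± 0.23, SE; adjusted p = 5.0e-05). Srf, Mrtfa and Mrtfb were at 0.37, 0.05 and -0.31 on the log2 scale (edgeR, adjusted p of 0.195, 0.866 and 0.119).

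**Figure D5:**
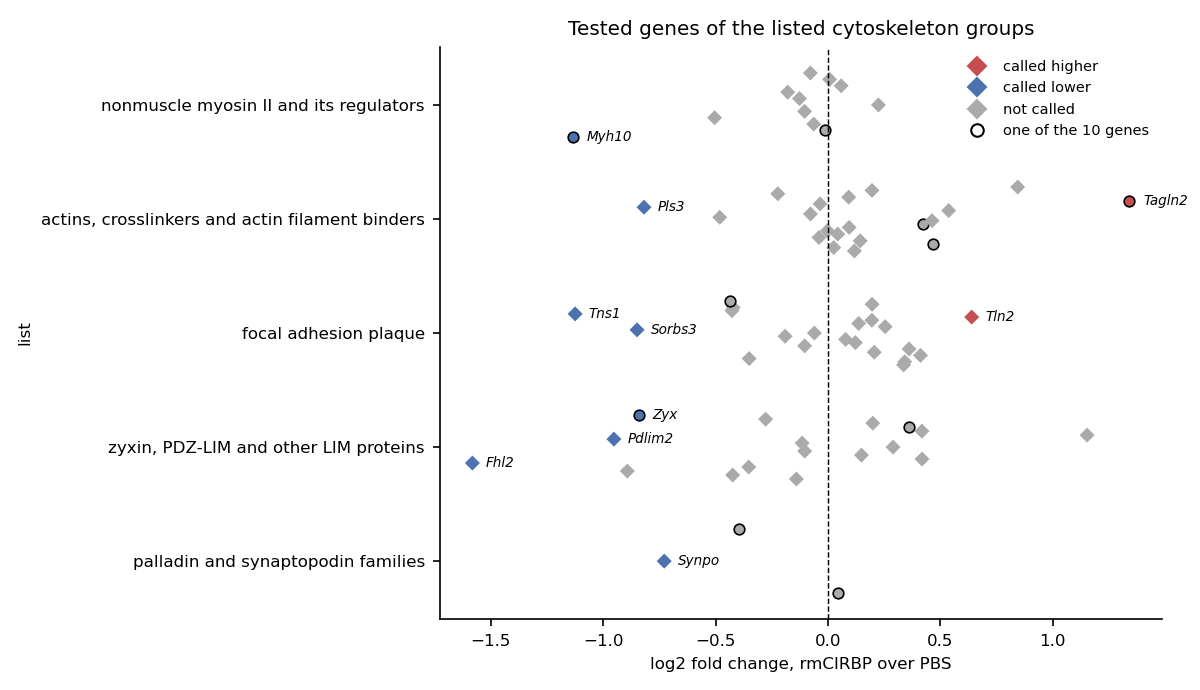
Log2 fold change of rmCIRBP over PBS for each tested gene of 5 lists of cytoskeleton genes; circles with a black rim are the 10 genes, diamonds the others, red and blue genes called higher or lower, which are named. Of the genes called, Tagln2 at 1.34 lies farthest to the right and Fhl2 at -1.58 farthest to the left.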

How the data were processed

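The authors deposited raw counts per gene for 6 libraries (3 PBS, 3 rmCIRBP), not normalized. The kit was a TruSeq mRNA kit with polyA selection, per the labels' protocols. The submitters' processing notes name featureCounts, DESeq2, R 4.1.2 and GRCm38 (mm10). Not given in the sources used here are the aligner, annotation release, strand setting and handling of multi-mapping reads. Columns were matched to samples by group and number in the titles, and 0 were unused.

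The deposited counts went into edgeR 4.0.16 under R 4.3.3: filterByExpr by group (15801 genes kept), TMM scaling, quasi-likelihood F test, two-sided, on treatment alone, Benjamini-Hochberg adjustment over all genes tested. Each SE is the absolute log2 fold change over the root of its F value; 95% intervals use the SE and the fit's degrees of freedom. Alternatives were other scalings and filters, DESeq2 1.42.0, limma 3.58.1 (voom), the replicate number as a block, and leaving out libraries. Transcript lengths and shared 50-base stretches were taken from GENCODE M21. On counts simulated for 15801 genes, 200 of them changed, edgeR made 161 calls, of which 10.6% were false. It found 56% of the 2-fold and 88% of the 4-fold changes. On the same counts 21.5% of 205 DESeq2 calls and 9.43% of 159 limma voom calls were false.

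Members and lists were chosen with earlier results of these data known. Named genes are the 10 members, their paralogs, up to 6 called genes per list, and the 3 genes of at least 10 CPM most alike to each called or widest-ranging member. Epha1, Ap3m1 and the antisense genes are named because they overlap members, and a few listed genes after their values were seen. Some genes and 1 list that these rules cover are not reported here.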

Additional observations from a re-analysis of the deposited data

How the results depend on the processing

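The count of genes called was 1818, and 723 to 2144 in the fits that left out 1 library (lowest without PBS 2, with 863 without PBS 3 and 742 without rmCIRBP 1). It was 2802 without PBS 1 and rmCIRBP 2 together. The same 3 of the 10 genes (Myh10, Tagln2 and Zyx) were called under each scaling and filter, by DESeq2 and by limma voom, and without PBS 1 and rmCIRBP 2 together. Only Myh10 and Zyx were called without PBS 2, PBS 3 or rmCIRBP 1, and the count of the 10 called was 2 to 3 when 1 library was left out. Of 150 alternative log2 fold changes of the 10 genes, 139 kept their direction and their side of the threshold. The sign changed for Myh9 without a filter (0.0060) and without PBS 1 (0.10), rmCIRBP 1 (0.07) or rmCIRBP 3 (0.15), for Pdlim7 without rmCIRBP 2 (-0.0898), and for Palld with upper quartile scaling (-0.0219), without rmCIRBP 2 (-0.0410) and without PBS 1 and rmCIRBP 2 together (-0.0450). None of these was called. The log2 ratio of Synpo2 to Synpo differed by -0.0033 between groups without PBS 1 and rmCIRBP 2 together. Among related genes, whose alternatives were added after the results were seen, the sign changed for Tagln without PBS 1 (0.21), rmCIRBP 1 (0.12) or rmCIRBP 3 (0.36), and for Actn4 without rmCIRBP 2 (-0.0773). With 1 library left out, the lowest and highest log2 fold changes were -0.296 and 0.15 for Myh9, -0.0898 and 0.623 for Pdlim7, -0.0410 and 0.12 for Palld, -0.811 and 0.36 for Tagln, and -0.0773 and 0.275 for Actn4. The cause of these changes was not tested. Leaving out 1 library moved the log2 ratio difference of Myh10 to Myh9 between -1.22 and -0.91, of Tagln2 to Tagln between 1.28 and 1.98, and of Synpo2 to Synpo between 0.12 and 0.61.

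The replicate numbers are shared by the groups. Same-numbered libraries did not deviate together for numbers 1 and 2 (Pearson's r across 10107 genes -0.24 and -0.27), but did for number 3 (0.35). PBS 1 correlated best with rmCIRBP 2 (0.50), so the numbers were not taken as pairs. With the replicate block, 1258 genes were called, and the same 3 of the 10 genes. The paired fit ended the calls of Pls3 (edgeR adjusted p = 0.0721, log2 fold change -0.80 against -0.82 without the block) and Lonrf1 (0.0599, -0.84 against -0.83). With 3 libraries a group, changes can be missed: 56% of simulated 2-fold changes were recovered by edgeR. Changes under 2-fold were not simulated. Since 200 of 15801 genes were changed in the simulation, and 11.5% were called in the data, the share recovered may differ here.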
